A study of Caenorhabditis elegans with 4 samples.

Results

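SMC-6 peaks on the X chromosome of Caenorhabditis elegans embryos were described here from chromatin immunoprecipitation followed by sequencing (ChIP-seq). A peak is a stretch of the genome where the DNA recovered with the protein is enriched. The series-wide peak list held 3392 peaks, and the 635 whose chromosome field read X were taken, with no threshold on score or width. The lists of the individual ChIP libraries held 337 peaks on X in replicate 1 and 261 in replicate 2. On the 5 autosomes together these lists held 2745, 1728 and 1166 peaks. All libraries came from wild-type N2 embryos of mixed stages, from a population of males and hermaphrodites. The 2 ChIP libraries were made with a polyclonal rabbit antibody against SMC-6, bought affinity-purified, and 2 input libraries entered no comparison here. Embryos came from bleached adults and were fixed with formaldehyde.

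SMC-6 is a subunit of the SMC-5/6 complex, a ring-shaped ATPase related to cohesin, which holds sister chromatids together, and to condensin, which compacts chromosomes. SMC-5/6 is known for its part in DNA repair, in replication and in recombination between sister chromatids, including in the C. elegans germ line. Hermaphrodite worms carry a pair of X chromosomes and males a single X. A specialised condensin binds along both X chromosomes of hermaphrodites and lowers their transcription. Worm autosomes have gene-rich centres and repeat-rich arms, a contrast that is weaker on X.

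Coordinates are on WormBase WS220, counted from 1, and X was taken to end at base 17718897, the last base of any listed peak. Each peak carries the authors' score from the peak caller, on a scale that neither labels nor headers name. Scores were compared only within a list. Read depth is unknown from these lists, and no label tells if the 2 libraries stem from separate cultures, so their spread may be technical. A stretch without a peak is a stretch where none was called, and the copy number of X in the input was not examined. Peaks of 1 genome are not replicates, and 2 libraries are too few for an exact permutation test to pass the usual threshold. Values on X are therefore set beside the range of the 5 autosomes and the values of both libraries, and no difference between X and the autosomes was tested. Intervals are 95% binomial limits (exact, Clopper-Pearson) for the counting error alone.

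X carried peaks at a density inside the autosomal range, but few of the strongest ones. In peaks per Mb, X stood at 35.8 in the series-wide list, against 24.3 on V to 40.4 on I. Replicate 1 had 19.02 on X, against 17.8 to 24.6 on the autosomes, and replicate 2 had 14.7, against 11.4 to 19.7. Of the X peaks, 34 of 635 (5.35%, interval 3.74 to 7.40%) were among the top 10% of the series-wide list by score, against 304 of 2745 autosomal peaks (11.1%, 9.92 to 12.3%). Replicate 1 had 17 of 337 X peaks in its top 10% (5.04%, 2.97 to 7.95%) and 190 of 1728 autosomal peaks (9.56 to 12.6%). Replicate 2 had 16 of 261 on X (6.13%, 3.54 to 9.76%) and 127 of 1166 on the autosomes (10.9%, 9.16 to 12.8%). X had the lowest share of the 6 chromosomes in each list. The autosome nearest to X was IV at 9.73% (series-wide), III at 8.98% (replicate 1) and IV at 9.62% (replicate 2). Over the 2 libraries the share was 5.59% ± 0.77 on X and 10.9% ± 0.07 on the autosomes (SD, n = 2). The top 10% was taken over all 6 chromosomes of a list, so the autosomal share follows from that on X. Its small SD is therefore no separate measure of how well the libraries agree.

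**Figure D1:**
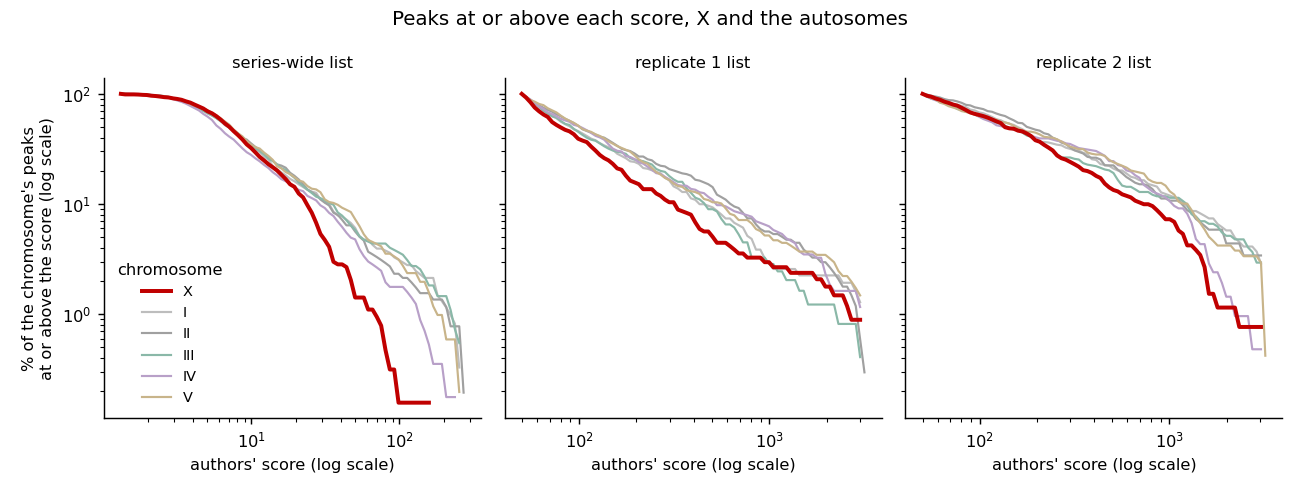
Share of each chromosome's peaks at or above a given score, in %, for X (red) and the 5 autosomes, in each peak list; both axes are logarithmic. In the series-wide list the X curve runs with the autosomes at low scores and below all of them at high ones, ending at a score of 169.

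In the series-wide list the shortage was one of the upper tail. X had 51.5% of its peaks in the upper 50% of that list, against 50.2% on the autosomes, and the median score was 7.11 on X and 6.87 on the autosomes. The top 20% held 19.1% of X peaks and 20.2% of autosomal ones, within the autosomal range of 17.2 to 22.5%. In the top 5%, X had 9 of 635 peaks (1.42%), against 160 of 2745 (5.83%), with 4.60% on the lowest autosome. The top 1% held no X peak, which allows a share of up to 0.579%, and 34 autosomal peaks (1.24%). The individual autosomes had 0.354% on IV to 1.81% on I in this class, so the share on IV lay inside the limit for X. In replicate 1 the middle of the distribution was lower too, with a median score of 79.6 on X, below the autosomal range of 90.7 to 102. In replicate 2 the median was 136 on X, inside the autosomal range of 134 to 181. In the top 1% of the replicate lists X lay inside the autosomal range, with 3 peaks in replicate 1 (0.890%, against 0.408 to 1.48%) and 2 in replicate 2 (0.766%, against 0 to 3.41%). The autosomes together had 1.04% in replicate 1 and 2.32% in replicate 2. The cut of replicate 2 fell on a score of 3100 that several peaks share, so this class held more than 1% of its list.

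In the top 10% of the replicate lists by score, the X peaks were wider than the autosomal ones in the median. The X peaks in the top 10% had a median width of 1674 bp in replicate 1, against 1058 bp on the autosomes, and 1891 bp in replicate 2, against 766 bp. In that class 12 of 17 X peaks of replicate 1 were 1 kb or wider, against 100 of 190 autosomal peaks. Replicate 2 had 12 of 16 on X, against 50 of 127. The series-wide list, made with another version of the caller, did not show this, with medians of 477 bp on X and 467 bp on the autosomes. The difference depended on the cut in replicate 1, where the top 20% had a median of 742 bp on X and 788 bp on the autosomes. In the top 20% of replicate 2 the medians were 1076.5 bp on X and 705.5 bp on the autosomes. Peaks of 500 bp to under 1 kb, a width class chosen after its values were seen, had a lower median score on X than on every autosome in both libraries. Their median was 168 on X in replicate 1, against 185 to 247 on the autosomes, and 262 in replicate 2, against 437 to 530. In the series-wide list the median of this class was 11.1 on X, inside the autosomal range of 9.35 to 13.0, while the upper quartile was 20.3 on X and 32.9 on the autosomes together. In the other width classes of the libraries X lay inside the autosomal range, apart from peaks under 200 bp in replicate 2 (56.0 on X, against 57.1 to 61.4).

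The 10 highest-scoring series-wide peaks on X were sharp, 392 to 848 bp wide. The highest, at 9296567 to 9296958, scored 169 and ranked 39 among all nuclear peaks. Replicate 1 had a peak there with a score of 484, and replicate 2 one with 1726. The next scored 94.6 (4208914 to 4209530), so the first stood well clear of the rest. Replicate 2 scored that site 1031, and replicate 1 had no peak on it. The third, at 14525673 to 14526228, scored 80.8, and it too was in replicate 2 (942) and missing from replicate 1. Both libraries listed the site at 13700553 to 13701086, which scored 77.5 series-wide, 264 in replicate 1 and 1214 in replicate 2.

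Others of these sites were strong in replicate 2 and modest in replicate 1. The peak at 11093809 to 11094526 (score 76.0) had 86.4 in replicate 1 and 1330 in replicate 2. That at 11937198 to 11937667 (73.5) had 94.2 and 713, and that at 8036021 to 8036868 (67.45) had 197 and 1526. The site at 6296225 to 6296856 (59.9) had 111 in replicate 1 and 1087 in replicate 2. The exception was 11643718 to 11644164 (60.1), with 906 in replicate 1 and 175 in replicate 2. The tenth, at 9465479 to 9466115 (49.5), was in replicate 2 alone (885). In all, replicate 2 listed 10 of these 10 sites and replicate 1 listed 7. On X they ranked 4 to 115 in replicate 2 and 11 to 156 in replicate 1.

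Wide regions led the replicate lists instead. The clearest was at 15807460 to 15811173, 3714 bp wide in the series-wide list with a score of 48.5. Replicate 1 gave it 3825 bp and replicate 2 gave it 4272 bp, each with a score of 3100, a value that several peaks of these lists share. A 2265 bp region at 11785589 to 11787853 (score 46.0) was likewise strong in both libraries, with 1888 in replicate 1 and 2266 in replicate 2. The highest X peak of replicate 1 scored 3106 at 7077420 to 7079292, where replicate 2 had a peak of nearly the same borders (7077417 to 7079256) with 1100 and the series-wide list one with 33.4. These 3 regions were high in each library.

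Other wide regions were strong in a single library. At 15226892 to 15228729 replicate 1 scored 2540 and replicate 2 scored 88.0, although the peaks had similar widths of 1880 and 2073 bp. At 1636091 to 1638577 the scores were 2100 in replicate 1 and 440 in replicate 2. Replicate 1 alone listed 16758199 to 16761648 (3100) and 17444501 to 17447797 (2646). Replicate 2 alone listed 109391 to 114342 (3100) and 14908066 to 14909406 (1613). The widest X peak, 5357 bp at 289874 to 295230 (score 13.7), was matched by a 5530 bp peak of replicate 2 with a score of 1167 and by 2 short peaks of replicate 1, scoring at most 72.0. At 9185831 to 9188704 replicate 2 had a 3838 bp peak with a score of 1231, and replicate 1 a 722 bp peak with 63.5. The 4467 bp series-wide peak at 7352048 to 7356514 was matched by 8 short peaks in replicate 1, none over 358 bp, and by a 372 bp peak in replicate 2.

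Most X peaks were short. Their median width was 274 bp in the series-wide list (quartiles 191 and 388 bp), inside the autosomal range of 259 to 277.5 bp. In replicate 1 it was 262 bp, below the autosomal range of 284 to 315 bp, and in replicate 2 it was 454 bp, inside the range of 428 to 458 bp. Peaks of 2 kb or more, a limit set after the widths were seen, numbered 13 on X in the series-wide list, against 3 to 12 on each autosome. Of these, 4 lay in the stretch of X with the most peaks, described next, and without it 9 remained on X. Both libraries overlapped 7 of the 13, and 3, all in that stretch, had no partner in either library. Score and width went together on X as on the autosomes, with a Spearman's rho of 0.59 over all 635 series-wide peaks, 0.71 over 337 of replicate 1 and 0.75 over 261 of replicate 2, given as a description.

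The stretch of X with the most peaks, also the longest, ran from 4025977 to 4056391. There 23 series-wide peaks, joined by gaps of at most 5 kb, covered 25614 of 30415 bp (84.2%), with scores of 3.38 to 26.96 and widths of 162 to 4315 bp. No autosomal stretch had more than 14 peaks or a length over 21309 bp. Its left border was also found in each library. Replicate 1 had 6 peaks between 4026012 and 4032493, with scores of 56.2 to 1030, and replicate 2 had 4 peaks between 4025986 and 4030092, with scores of 245 to 1525. Beyond those borders neither library listed a peak, and the remaining 20 series-wide peaks, from 4032627 on, had no partner. The stretch held 10.0% of all bases covered by series-wide peaks on X. X covered 1.45% of its length with peaks, against 1.02 to 1.56% on the autosomes, and 1.30% without the stretch. Input signal there was not analysed, and its part in these peaks was not tested.

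**Figure D2:**
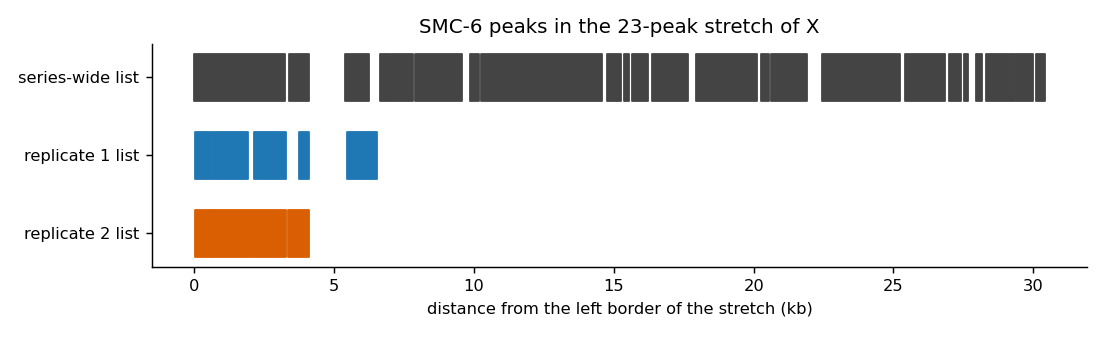
Peaks in the 23-peak stretch of X in each list, against the distance from the left border of the stretch in kb; each bar is a peak. The series-wide list fills most of 30.4 kb, while no peak of either library lies in its right-hand part.

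In all, 11 stretches of 4 or more peaks so joined lay on X in the series-wide list, and they held 89 of the 635 peaks (14.0%), against 14.9 to 19.6% on the autosomes. Without the leading stretch the share on X was 10.8%. The libraries did not show a low share on X, with 11.9% on X in replicate 1, against 4.82 to 23.4% on the autosomes, and 8.05% on X in replicate 2, against 4.94 to 13.4%. The other 10 stretches were 2166 to 11734 bp long. The one at 10361032 to 10372765 had 12 peaks and was a replicate 2 region, with 4 replicate 2 peaks covering 7758 bp (highest score 1557) and a replicate 1 peak of 253 bp (68.9). The one at 17441695 to 17451634 had 6 peaks and was a replicate 1 region, with 3 replicate 1 peaks (highest 2646) and a replicate 2 peak with a score of 157. In others both libraries had several peaks. At 2056171 to 2063901, 8 series-wide peaks stood beside 7 of replicate 1 (highest 400) and 3 of replicate 2 (highest 249). At 7351746 to 7361244, 8 series-wide peaks stood beside 12 of replicate 1 (highest 151) and 3 of replicate 2 (highest 142). The stretch at 16928113 to 16938580 had 10 series-wide peaks, a single replicate 1 peak (387) and 9 replicate 2 peaks (highest 500.95). Before any joining, the peaks of the 11 stretches covered 49.2% of the stretch length in the median. After peaks under 1 kb apart were joined, 10 of the 11 stretches came to 3 or fewer peaks.

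Along X, the libraries placed their peaks differently. X was divided into left, middle and right parts of equal length. Replicate 1 had 23.03, 14.9 and 19.1 peaks per Mb in them, so its density was lowest in the middle. Replicate 2 was even, with 14.6, 14.6 and 15.1 peaks per Mb. The series-wide list had 40.1, 31.2 and 36.2. The density of both outer parts over that of the middle was 1.23 in the series-wide list, above the autosomal range of 0.789 to 1.15. It was 1.16 without the 23-peak stretch, which lies in the left part. Replicate 1 had a ratio of 1.41, inside its autosomal range of 1.05 to 2.01, and replicate 2 had 1.02, inside its range of 0.714 to 1.04.

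Peaks shared by both libraries lie at nearly the same places in each, so a difference along X can only show in the unshared ones. Series-wide X peaks overlapped by both libraries had an outer to middle ratio of 1.00. Those overlapped by replicate 1 only had 2.14, and those overlapped by replicate 2 only had 0.816. On the autosomes together these classes had 0.838, 1.58 and 0.800. X lay inside the range of the individual autosomes in each class, 0.657 to 1.13, 1.02 to 3.025 and 0.591 to 0.95. Series-wide X peaks with no partner in either library had a ratio of 1.38, above the autosomal range of 0.615 to 1.03.

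In bins of 1 Mb, the series-wide list had 17 to 58 peaks per full bin of X (median 35), replicate 1 had 9 to 30 (median 20) and replicate 2 had 8 to 21 (median 15). The fullest series-wide bin, at 4 to 5 Mb, held 58 peaks, 20 in replicate 1 and 21 in replicate 2. Of its 58 peaks, 35 lay outside the 23-peak stretch, and joining peaks under 1 kb apart left 26. The next were at 2 to 3 Mb, with 46 series-wide, 20 replicate 1 and 13 replicate 2 peaks, and at 15 to 16 Mb, with 43, 24 and 11. The emptiest bin, at 6 to 7 Mb, was low in every list, with 17 series-wide, 13 replicate 1 and 8 replicate 2 peaks. At 12 to 13 Mb there were 26, 9 and 16 peaks, the lowest count of replicate 1. At 3 to 4 Mb there were 28, 23 and 12. The fullest bin of replicate 1 was the left end of X (0 to 1 Mb), with 30 peaks, where replicate 2 had 14.

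Over the 17 full bins, the peak numbers of the libraries were not alike on X (Pearson's r of -0.14, Spearman's rho of -0.17, given as a description). On the autosomes r lay between -0.51 on II and 0.50 on III. The bin at 11 to 12 Mb, chosen after its values were seen, held the most peaks of the top 10% by score in all 3 lists, with 6 in the series-wide list and 4 in each library. It includes the 11785589 to 11787853 region and 3 of the 10 highest-scoring sites.

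**Figure D3:**
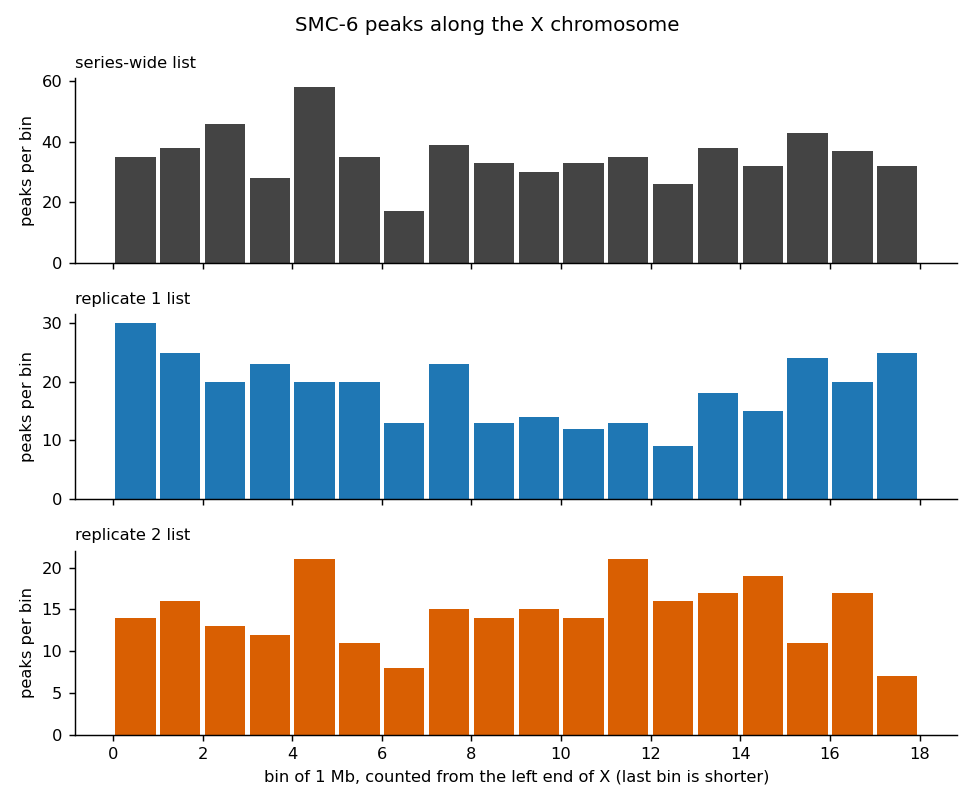
Number of SMC-6 peaks in bins of 1 Mb along X, in the series-wide list and in each library's list; each bar is a bin, and the last bin is 718897 bp long. The bin at 4 to 5 Mb is the fullest in the series-wide list, replicate 1 is fullest at the left end, and the bin at 6 to 7 Mb is low in every list.

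A smaller share of peaks had a close neighbour on X than on the autosomes. In the series-wide list 374 of 635 X peaks (58.9%) had a neighbour within 10 kb, against 61.8% on V to 67.8% on IV. Replicate 1 had 52.2% on X, against 57.2 to 66.98% on the autosomes. Replicate 2 had 33.7%, against 41.3 to 52.5%. On this measure X was the lowest of the 6 chromosomes in each list. Peak density was lower on V than on X in the series-wide list and in replicate 2. In replicate 1 it was 19.36 per Mb on V and 19.02 on X, and the part of density in these shares was not tested. Joining peaks under 1 kb apart left 517 peaks on X, of which 43.5% had such a neighbour, against 43.7 to 55.1% on the autosomes, so X and V hardly differed there. After joining, replicate 1 had 30.3% on X, against 35.7 to 40.1%, and replicate 2 had 22.1%, against 27.2 to 34.7%. Over the 2 libraries the share before joining was 43.0% ± 13.1 on X and 54.1% ± 10.8 on the autosomes (SD, n = 2), and its ratio within a library was 0.786 ± 0.086.

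**Figure D4:**
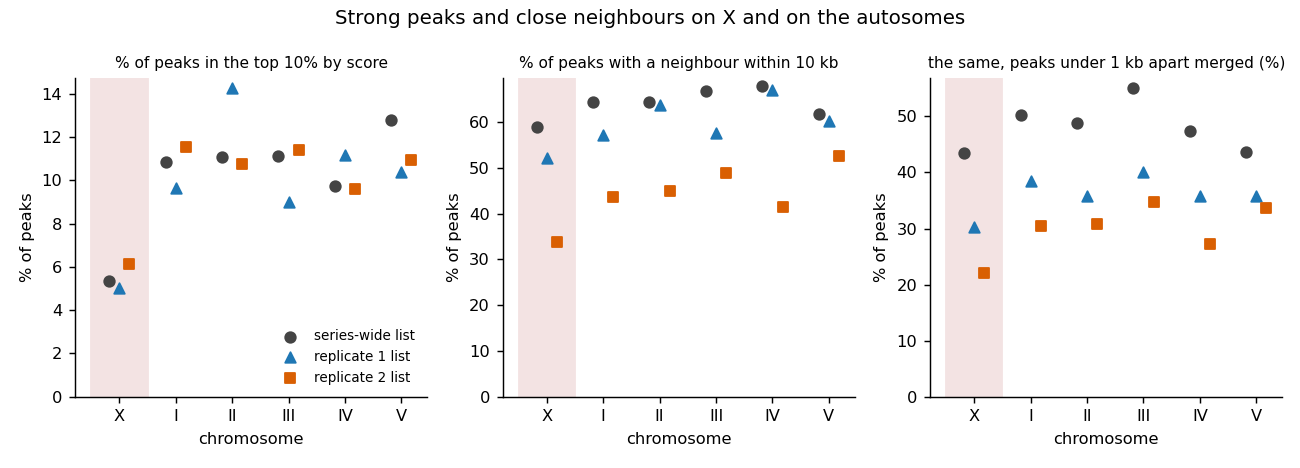
Share of peaks in the top 10% of their list by score (left), with a neighbour within 10 kb (middle), and the same after joining peaks under 1 kb apart (right), in % of each chromosome's peaks, for X (shaded) and the 5 autosomes in each list. X is the lowest chromosome of every list in all 3 panels, with 43.5% against 43.7% on V for the joined series-wide peaks.

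The series-wide X peaks were spaced 16900 bp apart in the median, inside the autosomal range of 13001 to 19617 bp. The median gap on X was 27786 bp in replicate 1, above the autosomal range of 16284 to 25286 bp, and 45363 bp in replicate 2, inside the range of 26267 to 55533 bp. Gaps of 10 to 50 kb made up 43.4% of the gaps on X, against 29.4 to 43.6% on the autosomes, and gaps over 100 kb made up 5.05%, against 3.45 to 12.6%. The spread of gaps relative to their mean (coefficient of variation) was 1.21 on X, against 1.22 to 1.33 on the autosomes. It was 1.31 on X in replicate 1, against 1.31 to 1.56, and 1.02 in replicate 2, against 1.24 to 1.37. Spacing in replicate 2 was thus more even on X than on any autosome, and in the other lists X lay beside the most even autosome, I.

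The longest stretch of X with no series-wide peak was 214726 bp, from 6378708 to 6593433, in the emptiest bin. Replicate 1 had no peak in it, and replicate 2 had 2, with scores of 120 and 336. The next ran from 15860777 to 16056166 (195390 bp) and held 2 replicate 1 peaks, scoring at most 66.8, and a replicate 2 peak with 419. From 10188715 to 10361031 (172317 bp) the only library peaks were ones that crossed its borders. At the left, a replicate 1 peak (59.3) ended at 10188870 and a replicate 2 peak (133) at 10188828. At the right, a replicate 2 peak (838) began at 10360951. The stretch from 11948432 to 12105858 (157427 bp) held no replicate 1 peak, and a replicate 2 peak (541) that began at 12105791 crossed its right border. That from 1447065 to 1597705 (150641 bp) held 4 replicate 1 peaks (at most 214) and a replicate 2 peak (184). Each of these 5 stretches was overlapped by a peak of at least 1 library, where 1 bp of overlap was enough. In those at 10188715 and 11948432 no peak of either library lay wholly inside. In the others, peaks crossing a border were not told apart from peaks inside. The longest gap of each autosome was 168719 bp on I to 412713 bp on V.

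Of the 635 series-wide X peaks, 99 (15.6%, 12.9 to 18.6%) were overlapped by at least 1 bp in both libraries, against 16.9% of all nuclear peaks. A further 111 (17.5%) were overlapped in replicate 1 only, 150 (23.6%) in replicate 2 only and 275 (43.3%, 39.4 to 47.3%) in neither. On the autosomes together these classes had 24.7%, 23.9% and 34.3%. The share in replicate 1 only was inside the autosomal range of 16.1 to 33.1%, and that in replicate 2 only inside 20.5 to 31.2%. The share in neither library was higher on X than on each autosome, where it was 28.5% on V to 40.6% on I. Leaving out the 23-peak stretch, it was 255 of 612 (41.7%). The share in both was inside the autosomal range of 15.5 to 23.2%. X peaks in both libraries had a median width of 490 bp and a median score of 17.0, and those in neither had 202 bp and 5.26. Wider peaks meet an overlap of 1 bp more easily, and width was not separated from support. Among the 127 lowest-scoring X peaks 1 was in both libraries (0.787%), and among the 127 highest-scoring ones 58 were (45.7%).

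**Figure D5:**
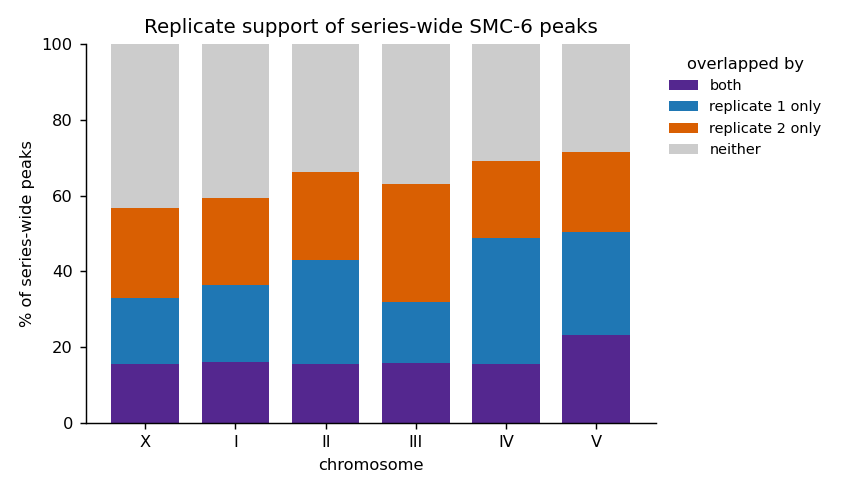
Share of the series-wide peaks of each chromosome overlapped by at least 1 bp in both libraries, in replicate 1 only, in replicate 2 only or in neither, in % of its peaks. X, at the left, has the largest share in neither library, 43.3%, against 40.6% on chromosome I.

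The shortage of strong peaks on X was also present among peaks with replicate support. Of the X peaks in both libraries, 25 of 99 (25.3%) were in the top 10% of the series-wide list, against 174 of 471 on the autosomes (36.9%, with 33.7 to 42.4% on the individual autosomes). In the class overlapped by replicate 2 only, the share was 9 of 150 on X and 129 of 655 on the autosomes (19.7%, with no autosome under 14.0%). The other classes held no peak of the top 10% on X and hardly any on the autosomes, 0 of 677 overlapped by replicate 1 only and 1 of 942 overlapped by neither. Close neighbours were also fewer in these 2 classes. Among peaks in both libraries 24.2% had another such peak within 10 kb on X, against 28.7 to 52.5% on the autosomes. In the class replicate 2 only it was 24.0%, against 28.3 to 38.0%. X lay inside the autosomal range in the classes replicate 1 only (53.2%, against 44.3 to 66.3%) and neither (33.1%, against 28.2 to 39.1%).

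Between the libraries themselves, 109 of 337 replicate 1 peaks on X (32.3%, 27.4 to 37.6%) were overlapped by a replicate 2 peak, against 28.5% over all nuclear peaks of that list and 21.9 to 35.1% on the individual autosomes. In the other direction 100 of 261 (38.3%, 32.4 to 44.5%) were overlapped, against 38.8% over all nuclear peaks and 32.0 to 46.2% on the autosomes. Agreement of the libraries on X was thus near the background. The 109 shared replicate 1 peaks had a median width of 382 bp and a median score of 106, and the 228 others had 228.5 bp and 71.15. Matching each peak with the partner it overlapped most gave 100 pairs on X. Their left borders differed by 75 bp and their right borders by 82 bp in the median, and the replicate 2 peak was the wider one in 85 pairs. Median scores were 116 in replicate 1 and 209 in replicate 2. Their scores were correlated with a Spearman's rho of 0.33 and a Pearson's r of 0.49 across the 100 pairs, given as a description, and rho lay between 0.40 and 0.57 on the autosomes.

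Both libraries had a peak at the very left end of X, a site chosen after its values were seen. It covered bases 1 to 344 in replicate 1 with a score of 1249, the ninth highest there on X, and bases 1 to 343 in replicate 2 with a score of 650. The series-wide peak covered bases 1 to 332 and scored 27.3. A peak at base 1 was found on all 6 nuclear chromosomes in the series-wide list and on 5 of 6 in each library. On V, the remaining chromosome, the first peak began at base 3 in each library. Such a peak was thus not particular to X, and the first peak of I scored highest in each library (2304 in replicate 1, 1249 in replicate 2). Worm chromosome ends carry telomeric repeats, and input signal there was not analysed. The last series-wide peak lay at 17718601 to 17718897 (score 8.22), with no partner in either library. X was taken to end with this peak, so its distance from the true right end is unknown here.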

How the data were processed

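The submitters' processing notes name BWA, without a version, and the genome build ce10. The authors deposited 3 peak lists, called with MACS for each ChIP library and with MACS v2 for the whole series, on WormBase WS220, per the file headers and source fields. Each peak's deposited value is the caller's score, on an unstated scale (lowest 1.31 in the series-wide list, 50.01 in replicate 1, 50.04 in replicate 2). No source used here tells which input each list used or how libraries were joined. Read depth is unknown.

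The members and lists were chosen with earlier results of these data known. Peaks on mitochondrial DNA (12 series-wide, 3 in each replicate list) were left out, and each chromosome was taken to end with its last listed peak. Peaks were placed in bins and parts by their midpoint. A neighbour is a peak of the same list with at most 10 kb between them, a dense stretch is 4 or more peaks joined by gaps of at most 5 kb, and overlap is at least 1 bp. Functions were tested on simulated peaks. Values were computed with Python 3.11.15, numpy 2.4.6, pandas 2.3.3 and scipy 1.17.1, and figures drawn with matplotlib 3.10.9. Groups and replicate numbers came from sample titles.

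Named regions of X were the 10 highest-scoring series-wide peaks, the 8 widest in both libraries, the 6 stretches with most peaks, the 5 longest gaps, the 3 fullest and 3 emptiest bins, and the 5 highest-scoring peaks of each library. Gene annotation and genome sequence were not used here.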

Additional observations from a re-analysis of the deposited data

How the results depend on the processing

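Of 72 alternative values, 43 moved by no more than the spread of the 2 libraries (for shares overlapped, the interval). The ratio of X to autosome density, 1.08, was 0.909 to 1.04 in a single library and 0.979 for peaks in both. Median width on X, 274 bp, was 262 to 454 bp and 490 bp, its ratio to the autosomes, 1.03, was 0.866 to 1.02 in a single library, and the ratio of median scores, 1.03, was 0.815 to 0.864 and 0.912 for peaks in both. The share with a neighbour within 10 kb, 58.9%, was 33.7 to 52.2% in a single library, 24.2% for peaks in both, 40.7% in the upper 50% by score, 43.5% after merging, 45.7% within 5 kb and 78.3% within 20 kb. Its ratio to the autosomes, 0.905, was 0.725 to 0.847 and 0.568 for peaks in both, and 0.981 within 20 kb. The share in dense stretches, 14.0%, was 8.05 to 11.9% in a single library, 18.7% with gaps of 10 kb, 10.8% without the 23-peak stretch and 0.774% after merging. The share in both libraries, 15.6%, was 27.5% in the upper 50% of the series-wide list and 6.30% with the upper 50% of each library's list. With lists of equal size, overlap was 38.4% for replicate 1 and 29.1% for replicate 2. The fullest bin started at 0 to 4 Mb in a single library (4 Mb in the series-wide list, 2 Mb without the 23-peak stretch; replicate 2 was as full at 11 Mb). The ratio of shares in the top 10% by score, 0.483, was 0.459 to 0.563 in a single library. It was 0.243 in the top 5% and 0.942 in the top 20%. For peaks in both, ranked anew among themselves, it was 0.0850 and rested on very few of the 99 X peaks. This ratio, the ratio for neighbours, all their alternatives and the leaving out of the stretch (19 values) were chosen after the data were seen. The causes were not tested. No paired analysis was possible because the groups that share replicate numbers, ChIP and input, could not be set against each other from ChIP peak lists alone. X and the autosomes were compared within each library, without a test.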
